A study of Triticum dicoccoides with 12 samples.

Results

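A set of 45 probe sets held a difference between the genotypes of wild emmer wheat in well-watered plants and under terminal drought, and each was measured on every array. Y12-3, the drought-resistant genotype, is called R here, and A24-39, the drought-susceptible one, is called S. The 45 probe sets were chosen by their signals on all 12 arrays. Each signal had to exceed 129, the level below which 95% of the signals of 23 control probe sets with no wheat target lay, and the lowest of the 6 signals of one genotype had to be at least 2 times the highest of the 6 of the other. Of 61115 probe sets that are no controls, 14602 exceeded that control level on every array, and 45 of these (0.308%) met the second condition, 20 higher in R and 25 higher in S. Since the rule used the difference between R and S on every array, that difference is described below and not tested. The direction "higher in R" or "higher in S" is likewise fixed by the rule.

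The 4 groups were watered R, droughted R, watered S and droughted S, with 3 arrays each. Plants of both genotypes were 10 weeks old, in reproductive growth, and grown in a mix of quartz sand and peat, and the organ sampled was the phyllome, that is leaves and leaf-like organs. Each genotype is 1 accession, and the labels do not state that the replicates were different plants, so a p-value reflects only the variation among these arrays, part of which may be technical. Leaf tissue was checked by the brightest probe sets of petC, the Rieske protein of the photosynthetic cytochrome b6f complex, and FBP, fructose-1,6-bisphosphatase of carbon fixation and sucrose synthesis, which lay above the control level on all 12 arrays. The other annotated probe set of petC exceeded it on 0 arrays and that of FBP on 2. The median signal of an array ran from 58.6 to 152, and watered R replicate 3 stood apart with the highest median and with 33048 probe sets over 129, where the other 11 arrays had 21851 to 27347. The trimmed mean signal was 500.3 on all 12 arrays, so these had been brought to a common scale before deposit.

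Wild emmer is a tetraploid, so that most of its genes exist as homoeologous copies from an A and a B genome that are similar in sequence. A difference between accessions that is present with and without stress is usually called constitutive, in contrast to a stress response, and such differences are common between wild accessions of plants. An array probe set reads a transcript through short probes designed on wheat sequences, and its name says what it can tell apart. The ending _at stands for probes unique to 1 transcript, _a_at for probes shared by transcripts of 1 gene, _s_at for probes shared by several transcripts, and _x_at for probes that may also bind other sequences. For a signal that differs between accessions, transcript amount and the fit of the probes to each accession's sequence cannot be told apart, and in a whole organ neither can fewer cells of a type and less RNA per cell.

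The platform annotation, dated 2007, paired 1 of the 45 members with a gene, LOC606363, and gave none for the other 44, which are named by their probe set. It names 562 of the 14602 probe sets measured on all arrays. No role is given here for LOC606363 or for any other member, because none of the tables used states one.

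Among the 20 members higher in R, the widest separation was in Ta.25217.2.S1_s_at, where the lowest R signal was 5.94 times the highest S signal. Its signals were 1424, 1575 and 1546 in watered R, 1512, 1363 and 1686 in droughted R, 226, 190.4 and 229 in watered S and 129, 197 and 177 in droughted S. The 6 R arrays stayed within a narrow band in both regimes, while every S array lay within 2 times the control level. For Ta.11314.1.S1_at the signals were 4820.2, 4468 and 3937 in watered R, 5186, 6232 and 4861 in droughted R, 314, 592 and 382 in watered S and 669, 549 and 429 in droughted S. TaAffx.131567.2.S1_x_at, one of the brightest members higher in R, measured 10701, 7573 and 7673 in watered R, 11565, 16184 and 12168 in droughted R, 371, 720.3 and 947 in watered S and 1743, 708 and 834 in droughted S. In both of these the 3 droughted R arrays lay above the 3 watered ones, and in the second 1 droughted S array stood above the other 5 S arrays at 1743. Ta.11314.1.S1_at and TaAffx.131567.2.S1_x_at were the 2 members higher in R whose group means of log2(signal + 16) were over 8-fold apart in both regimes, by 10.2-fold and 13.2-fold when watered and by 9.73-fold and 12.8-fold under drought. Ta.28339.1.S1_at came close, with 7.63-fold and 12.04-fold.

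Of the next 5 in separation, Ta.3550.1.S1_at measured 1960.1, 2993 and 1490.4 in watered R, 1306, 1247 and 1727 in droughted R, 239.8, 162 and 292 in watered S and 261, 238 and 297 in droughted S. Ta.28339.1.S1_at gave 2629, 2420.1 and 2842 in watered R, 5769, 3334 and 3468 in droughted R, 424, 144 and 571 in watered S and 600.0, 317 and 173 in droughted S. In the first the watered R arrays were the more scattered, and in the second 1 droughted R array stood above the rest. Ta.28377.2.S1_s_at measured 2196, 3595 and 2503 in watered R, 1534, 2746 and 1967 in droughted R, 445, 371 and 282 in watered S and 214, 243 and 310.3 in droughted S. For Ta.1763.1.S1_x_at the values were 5314, 5562 and 8059.5 in watered R, 11179, 9939.7 and 9498 in droughted R, 596, 989.9 and 960.0 in watered S and 840.0, 1573 and 1279.5 in droughted S. Its 3 droughted R arrays all lay above its 3 watered R arrays, and the S arrays of the 2 regimes overlapped. Ta.1211.1.S1_at gave 2849, 2974 and 1669 in watered R, 4444, 3316 and 2754 in droughted R, 436, 408 and 528 in watered S and 536, 472 and 361 in droughted S, with watered R replicate 3 the lowest of the 6 R arrays.

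The other 12 members higher in R had separation ratios of 2.01 to 2.96. They are Ta.22966.2.S1_at, Ta.10499.1.S1_x_at, Ta.11269.1.S1_at, TaAffx.38601.1.A1_at, Ta.11520.1.A1_at, Ta.16016.1.S1_at, Ta.9729.1.A1_x_at, TaAffx.55680.1.S1_at, TaAffx.97334.1.S1_at, TaAffx.52899.1.S1_at, Ta.7416.2.S1_a_at and Ta.10914.1.S1_at. The brightest of all 20 was TaAffx.55680.1.S1_at, and the dimmest was Ta.7416.2.S1_a_at, with a mean R signal of 572 and a mean S signal of 204.

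**Figure D1:**
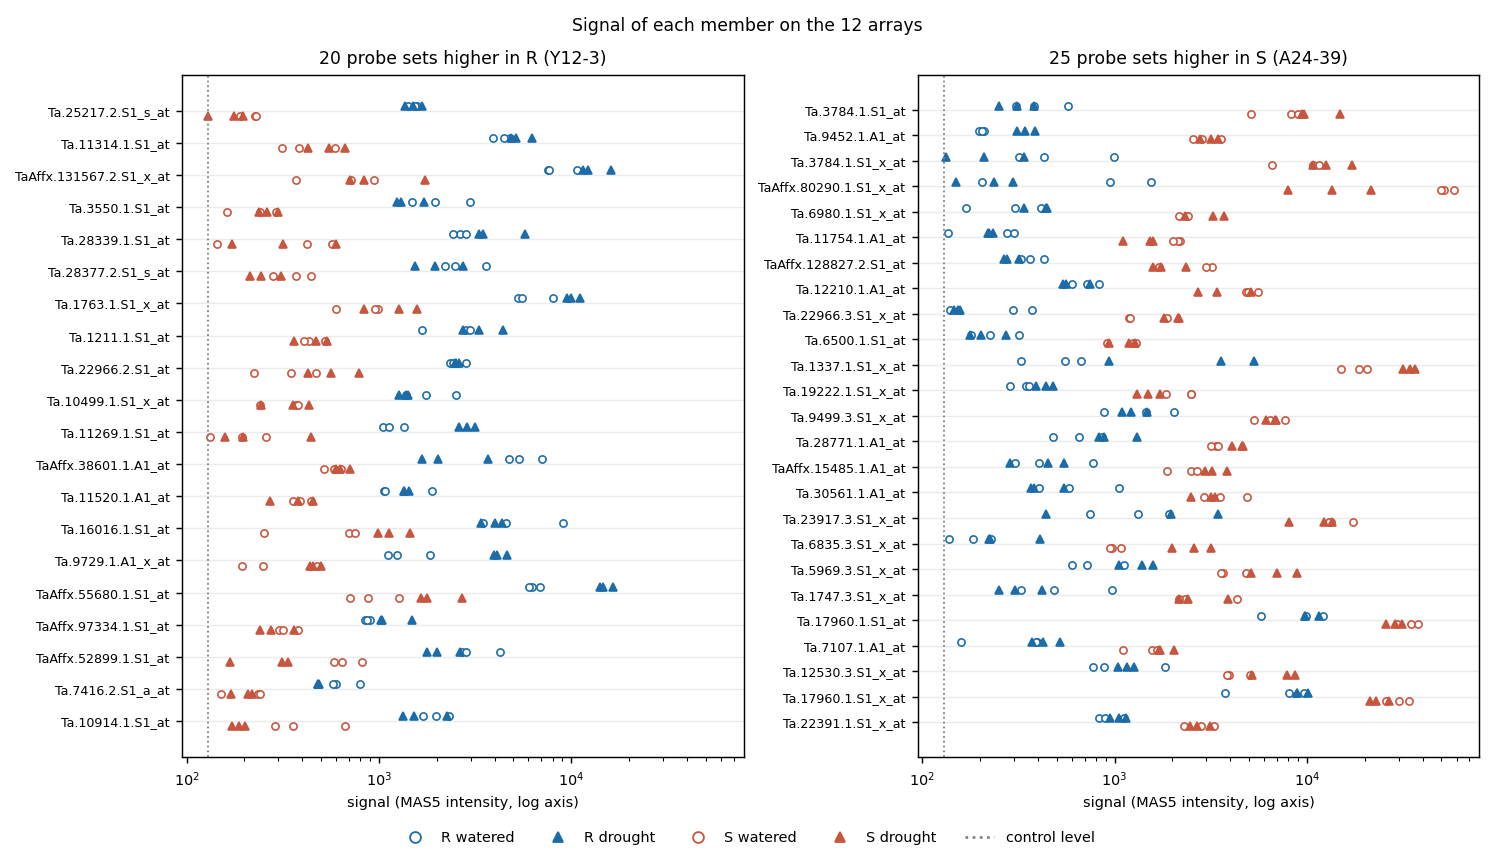
Signal of the 45 members on the 12 arrays, on a log axis of MAS5 intensity, with 1 line per member ordered by separation ratio; each point is 1 array, blue for R (upper row of a member) and red for S (lower row), open circles watered and filled triangles droughted, and the dotted line is the control level of 129. In every line the 6 arrays of one genotype lie apart from the 6 of the other by at least 2 times, as the rule asks, and the members higher in S reach further to the right, up to 58145.

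The members higher in S held the largest differences. In Ta.3784.1.S1_at the lowest S signal was 8.97 times the highest R signal, the widest separation of the 45, with 305, 381 and 574 in watered R, 312, 382 and 251 in droughted R, 5147, 8309 and 9029 in watered S and 14784, 9484 and 9677 in droughted S. A second member of the same cluster, Ta.3784.1.S1_x_at, is designed on the same sequence and measured 319, 429 and 994 in watered R, 209, 340 and 133 in droughted R, 6576, 10764 and 11625 in watered S and 17134, 12561 and 10826 in droughted S. Watered R replicate 3 was the highest of the R arrays in both. Because these share a target, they count as 1 difference read by 2 probe sets.

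TaAffx.80290.1.S1_x_at had the largest difference of means in watered plants and the second largest under drought, 77.0-fold when watered and 56.5-fold under drought. Another probe set on its sequence, TaAffx.80290.1.S1_at, is no member and differed less, by −2.59 and −3.26 (R minus S, log2 scale). Its R arrays reached 27440 and its S arrays began at 7231, so that the genotypes overlapped. The signals of the member were 951, 203 and 1541 in watered R, 149, 296 and 235 in droughted R, 51756, 58145 and 50048 in watered S and 7994, 21568 and 13445 in droughted S. The watered S arrays were the brightest of any member, and the R arrays ranged over 10-fold, from 149 to 1541, with watered R replicate 3 highest. Ta.9452.1.A1_at was far more even, with 208, 197 and 205 in watered R, 384, 312 and 342 in droughted R, 2564, 2863 and 3588 in watered S and 3189, 3449 and 2794 in droughted S. Ta.1337.1.S1_x_at measured 328, 551 and 667 in watered R, 931, 3578 and 5296 in droughted R, 15067, 18776 and 20436 in watered S and 34195, 36395 and 31512 in droughted S. Here the droughted R arrays spread from 931 to 5296 and all 3 lay above the watered R arrays. These 5 members of 4 clusters were those higher in S whose means differed over 8-fold in both regimes.

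Further down in separation, Ta.6980.1.S1_x_at measured 305, 168 and 414 in watered R, 339.6, 445 and 442 in droughted R, 2394, 2157 and 2416 in watered S and 3719.9, 2324 and 3247 in droughted S. Ta.11754.1.A1_at gave 277, 135 and 299 in watered R, 219, 224 and 232 in droughted R, 2199.7, 2138 and 2008 in watered S and 1526, 1576 and 1108 in droughted S. In the first the S arrays of the 2 regimes overlapped, and in the second all 3 droughted S arrays lay below the watered ones. TaAffx.128827.2.S1_at measured 431, 363 and 328 in watered R, 277, 318 and 266 in droughted R, 3228, 1707 and 2979 in watered S and 1584, 2353 and 1752 in droughted S. The values of Ta.12210.1.A1_at were 603, 829.9 and 716 in watered R, 539, 562 and 746 in droughted R, 4822, 4913 and 5538 in watered S and 3390.5, 5129 and 2728 in droughted S. In both, the S arrays of the 2 regimes overlapped.

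LOC606363, read by Ta.23917.3.S1_x_at, measured 743, 1322 and 1917 in watered R, 439, 1968 and 3452 in droughted R, 13380, 17383 and 13050 in watered S and 8112, 13439 and 12234 in droughted S. Its S arrays ran from 8112 to 17383 and its R arrays ran from 439 to 3452, so that its separation ratio was 2.35. A second probe set of LOC606363, TaAffx.128418.102.S1_at, did not separate the genotypes. Its R arrays lay between 57.3 and 396 and its S arrays between 188 and 880.2, with medians of 249 and 238, and it exceeded the control level on 11 of the 12 arrays.

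The brightest members were Ta.17960.1.S1_at and Ta.17960.1.S1_x_at, again designed on 1 sequence. The first measured 5776, 12059 and 9929 in watered R, 9758, 9739 and 11536 in droughted R, 34609, 37824 and 29429 in watered S and 28737, 25859 and 31251 in droughted S. Here the lower genotype too had a high signal, with a mean R signal of 9799.6 against 31285 in S. The _x_at probe set had a mean of 8239.9 in R and 26817 in S. In both, watered R replicate 1 was the lowest array. The remaining 13 members higher in S had separation ratios of 2.02 to 3.20. They are Ta.22966.3.S1_x_at, Ta.6500.1.S1_at, Ta.19222.1.S1_x_at, Ta.9499.3.S1_x_at, Ta.28771.1.A1_at, TaAffx.15485.1.A1_at, Ta.30561.1.A1_at, Ta.6835.3.S1_x_at, Ta.5969.3.S1_x_at, Ta.1747.3.S1_x_at, Ta.7107.1.A1_at, Ta.12530.3.S1_x_at and Ta.22391.1.S1_x_at.

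A signal depends on the probes as well as on the transcript, so that levels of different probe sets are given as signals and not as transcript amounts. The median over members of the mean log2 signal was 9.98 for those higher in R and 10.7 for those higher in S, against 10.2 over the 14602 probe sets measured on all arrays. Signals of the higher genotype exceeded 1000 on all 6 arrays in 18 of 20 members higher in R and 23 of 25 higher in S. The lower genotype passed 1000 on at least 1 array in 4 and 11 members, while in 2 members, both higher in R, it stayed under 2 times the control level on all 6 arrays. Signal above the control level in both genotypes was required by the rule, and the differences are called graded in that sense only. The highest single signal of the 23 control probe sets was 349.82, above some signals of the lower genotype.

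In group means of log2(signal + 16), where 16 is a constant that damps small signals and slightly lowers every fold, members higher in R differed by a median of 6.71-fold when watered (2.55 to 13.2) and 7.54-fold under drought (2.34 to 12.8). For members higher in S the medians were 5.27-fold (2.90 to 77.0) and 6.24-fold (2.54 to 58.1). Means were over 4-fold apart in both regimes in 34 members, 14 higher in R and 20 higher in S, over 8-fold in 7, and under 4-fold in both regimes in 5. As a background, the median size of the R minus S difference over the 14602 probe sets was 0.316 on the log2 scale when watered and 0.358 under drought. All 6 R arrays lay above all 6 S arrays in 217 of them (1.49%), and the reverse held in 283 (1.94%), of which 20 and 25 reached the 2-fold margin.

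The limit of the rule cut through a continuous range. Just inside it, Ta.7416.2.S1_a_at measured 598, 802 and 574 in watered R, 485, 490.1 and 481 in droughted R, 235, 151 and 239.8 in watered S and 171, 208 and 218 in droughted S, a separation ratio of 2.01. The ratios of Ta.10914.1.S1_at and TaAffx.52899.1.S1_at were 2.01 and 2.16. Just outside it, Ta.1305.2.S1_x_at measured 2998, 3007 and 3311 in watered R, 2387, 1996 and 1999 in droughted R, 1013, 864 and 836 in watered S and 469, 881 and 518 in droughted S, a ratio of 1.97 in favour of R, followed by TaAffx.120714.1.S1_at at 1.89 and TaAffx.92436.1.A1_at at 1.83. On the side of S, Ta.22391.1.S1_x_at, Ta.17960.1.S1_x_at and Ta.12530.3.S1_x_at were just inside with ratios of 2.02, 2.095 and 2.10. Ta.28274.1.S1_s_at, Ta.7172.1.S1_a_at and Ta.9761.1.S1_x_at were just outside with 1.985, 1.983 and 1.975.

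A margin of 1.5 times would have admitted 106 probe sets and one of 3 times 17. Leaving out an array can only add members, and all 45 stayed whichever array was left out. Without watered S replicate 2 the same rule on 11 arrays gave 71 members, 39 of them higher in R. Without watered R replicate 3, the array that stands apart, it gave 50, of which 22 were higher in R. Rescaling the arrays changed who passed, and 30 of the 45 still met the rule with median scaling, 42 with quantile normalization, 15 when scaled to the hybridization control probe sets and 21 when scaled to those for poly-A RNA. All 45 kept the direction of their mean difference in both regimes under these 4 scalings. Their arrays also stayed apart, except those of Ta.7416.2.S1_a_at with hybridization control scaling.

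Whether drought changed the gap between the genotypes was tested as the interaction of genotype and drought, fitted with limma to all 12 arrays and 38398 probe sets on log2(signal + 16), a scale that slightly understates the change of dim probe sets. No member passed a Benjamini-Hochberg adjusted p of 0.05 for the interaction, where 0.148% of all tested probe sets and 0.164% of those measured on all arrays did. At an unadjusted p under 0.05 there were 8 of 45 members (17.8%), beside 12.9% of all tested probe sets. The lowest adjusted p was 0.15, and the standard error of a change of the gap ran from 0.305 to 0.781 on the log2 scale with a median of 0.41, which limits what 3 arrays a group can detect. The rule also held the gap of each member above 2-fold in each regime, so that a lost or turned gap could not occur among members.

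By value, the gap was larger under drought in 23 members and smaller in 22, and in 21 it differed between regimes by under 0.5 on the log2 scale. The median size of the interaction was 0.598 over the members and 0.381 over the 14602 probe sets, given without a test. The median change was 0.17 for members higher in R, where 12 gaps were larger and 8 smaller under drought, and −0.13 for those higher in S, where 11 were larger and 14 smaller. These 2 medians are not settled in sign, because both turned with poly-A control scaling, to −0.091 and 0.14. Median scaling gave 0.62 and −0.56 and hybridization control scaling 1.06 and −0.99, and quantile normalization 0.022 and −0.37. With 1 array left out the first ran from 0.059, without watered S replicate 2, to 0.31, without watered S replicate 1. The second ran from −0.22, without droughted R replicate 1, to −0.060, without watered S replicate 1. Scaling each array by 1 factor shifts all its probe sets alike. The gaps of members higher in R and higher in S then move in opposite ways. Quantile normalization is no such shift, and both medians were lower with it than as deposited. The median R minus S interaction over all tested probe sets was −0.208 as deposited, 0.198 with median scaling, 0.591 when scaled to the hybridization controls and −0.445 when scaled to the poly-A controls.

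**Figure D2:**
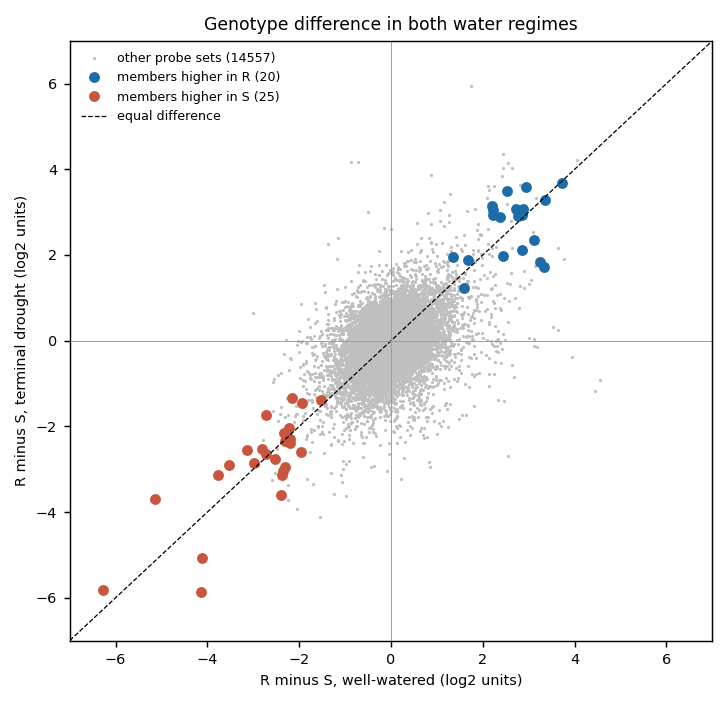
Difference of group means, R minus S in log2 units, in watered plants (x axis) and under drought (y axis) for the 14602 probe sets above the control level on all arrays, with the 45 members in colour and the other 14557 in grey; the dashed line marks an equal difference in both regimes. The members lie away from the centre along the diagonal, from 1.35 to 3.72 on the x axis for those higher in R and from −6.27 to −1.54 for those higher in S. Some other probe sets lie further out than some members, such as Ta.6835.1.S1_at at −2.79 and −2.33.

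In 5 members the gap differed by over 1 on the log2 scale between regimes. The gap of Ta.3784.1.S1_x_at was 4.14 when watered and 5.86 under drought, a change of 1.72 ± 0.57 (SE, limma adjusted p = 0.23). Ta.22966.3.S1_x_at went from 2.40 to 3.60 (adjusted p = 0.28). In both, R arrays were lower and S arrays higher in mean under drought, and the ranges of the regimes overlapped within each genotype.

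Smaller gaps under drought were measured for Ta.16016.1.S1_at, from 3.32 to 1.72, a change of −1.60 ± 0.56 (SE, limma adjusted p = 0.25). TaAffx.38601.1.A1_at went from 3.25 to 1.83 and had the lowest adjusted p of all members, 0.15. Ta.1337.1.S1_x_at went from 5.14 to 3.69 (adjusted p = 0.37). Thus each of the 5 kept a gap above 3-fold in the regime where it was smaller, and none of the changes passed the threshold. At the other end, the gap of Ta.5969.3.S1_x_at was 2.32 and 2.35, that of TaAffx.131567.2.S1_x_at 3.72 and 3.68, and that of Ta.28377.2.S1_s_at 2.85 and 2.92, differences below their standard errors of 0.39, 0.51 and 0.41.

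The drought change within each genotype was tested in the same fit. In R, 8 of the 45 passed the threshold (17.8%), 5 higher and 3 lower under drought, where 33.4% of all tested probe sets passed it, 13.6% higher and 19.8% lower, and 49.0% of those measured on all arrays. In S, 6 of the 45 passed it (13.3%), 3 higher and 3 lower, against 27.2%, of which 13.5% higher and 13.8% lower, and 40.9%. The rule favours probe sets with little spread between the 6 arrays of a genotype, drought changes included, so nothing is read from these lower shares. The median size of a drought change was 0.475 in R and 0.415 in S over the members, and 0.749 and 0.639 over the 14602 probe sets. Without watered R replicate 3 the calls in R were 7 higher and 1 lower, beside 12.2% and 15.9% of all tested probe sets. Those in S were then 3 higher and 3 lower, beside 13.8% and 13.9%. The split in R depended on the scaling, and so did that of all tested probe sets. Median scaling gave 17 members higher and 0 lower, beside 20.2% and 11.6% of all tested probe sets, and hybridization control scaling also gave 17 and 0, beside 22.4% and 5.45%. Quantile normalization gave 10 and 1, beside 16.2% and 15.1%, and poly-A control scaling 4 and 0, beside 9.94% and 12.3%. In S the split was 3 and 1 with poly-A control scaling, beside 13.0% and 5.86%, and 1 and 1 when scaled to the hybridization controls, beside 9.01% and 8.14%.

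One member was called higher under drought in both genotypes and 1 lower in both, 6 passed in R alone, 4 in S alone, and 33 in neither. TaAffx.55680.1.S1_at rose in both. Its signals were 6229, 6886 and 6034 in watered R, 14130, 14677 and 16564 in droughted R, 879, 1273 and 709.5 in watered S and 1652, 1779 and 2709.6 in droughted S, and within each genotype the 2 regimes did not overlap. The rise was 1.24 ± 0.24 on the log2 scale in R and 1.10 ± 0.24 in S (SE, limma adjusted p = 0.0012 and 0.0039). The gap was 6.78-fold in watered plants and 7.50-fold under drought. TaAffx.80290.1.S1_x_at, whose signals are given above, changed by −1.56 ± 0.55 in R (limma adjusted p = 0.041) and −2.01 ± 0.55 in S (adjusted p = 0.014). In S all 3 droughted arrays lay below the watered ones, whereas in R the regimes overlapped.

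Of the members called in R alone, Ta.9729.1.A1_x_at rose by 1.61 ± 0.30 (SE, limma adjusted p = 0.0009). Its R signals were 1121, 1839 and 1249 when watered and 4664, 4092 and 3957 under drought, and its S signals 249, 479.5 and 194 and 452, 437 and 498. Ta.11269.1.S1_at rose by 1.28 ± 0.34 (adjusted p = 0.01), from 1052, 1349 and 1132 to 2868, 2599 and 3157 in R, beside 259, 133 and 194 and 196, 442 and 159 in S. In both, the regimes lay apart in R and overlapped in S. TaAffx.38601.1.A1_at changed in R by −1.27 ± 0.28 on the log2 scale (adjusted p = 0.0026), with 5376, 7082 and 4726 in watered R, 1685, 2042 and 3683 in droughted R, 586, 519.7 and 637 in watered S and 632, 709.6 and 597 in droughted S. Its 6 S arrays stayed between 519.7 and 709.6.

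Among members higher in S, Ta.1337.1.S1_x_at rose in R by 2.36 ± 0.46 (SE, limma adjusted p = 0.0013), beside 0.92 ± 0.46 in S, which did not pass the threshold although the regimes did not overlap there either. Ta.9452.1.A1_at rose in R by 0.72 ± 0.22 (adjusted p = 0.021), and Ta.3784.1.S1_x_at changed in R by −1.22 ± 0.40 (adjusted p = 0.03). The other member on that sequence, Ta.3784.1.S1_at, measured −0.37 ± 0.30 in R and was not called. None of these responses was shown to differ between the genotypes, since no interaction passed the threshold.

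In S alone, Ta.6835.3.S1_x_at rose by 1.33 ± 0.30 (SE, limma adjusted p = 0.0042), from 972, 944 and 1086 to 2591, 1989 and 3159.7. Its R arrays measured 183, 137 and 227 when watered and 409.5, 223 and 225 under drought, an overlap of the regimes. Ta.16016.1.S1_at rose by 1.18 ± 0.40 (adjusted p = 0.039), from 251, 703 and 749 to 1126, 1454 and 992, beside R signals of 9098, 3495 and 4567 and 4376, 4012 and 3399. TaAffx.52899.1.S1_at and Ta.10914.1.S1_at, both higher in R, changed in S by −1.31 ± 0.30 and −1.08 ± 0.31 (adjusted p = 0.0043 and 0.018). In S, the droughted arrays of both lay below the watered ones, at 315, 169 and 338 against 582, 645 and 822, and at 202, 187 and 172 against 289, 666 and 359.

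Of these 14 calls, 5 were kept under all 23 alternatives, and each of the 14 changes kept its direction under all of them. The 5 were the rises in R of Ta.9729.1.A1_x_at, Ta.11269.1.S1_at, Ta.1337.1.S1_x_at and TaAffx.55680.1.S1_at and the rise in S of Ta.6835.3.S1_x_at. Over the alternatives their log2 changes ran from 1.47 to 2.54, 1.20 to 2.20, 1.85 to 3.28, 1.11 to 2.17 and 1.17 to 1.72. Least firm was the fall of TaAffx.80290.1.S1_x_at in R, lost under 15 alternatives, among them all 4 scalings (−1.44 to −0.66, adjusted p = 0.061 to 0.34) and leaving out watered R replicate 3 (−0.97, adjusted p = 0.2). It was also lost without watered R replicate 1, droughted R replicate 1 or droughted R replicate 3 (−1.61 to −1.31, adjusted p = 0.069 to 0.14), and narrowly without any 1 of the watered S arrays or droughted S replicate 3 (adjusted p = 0.053 to 0.054). Its fall in S was lost without droughted S replicate 1 (−1.64, adjusted p = 0.073). The call of Ta.3784.1.S1_x_at in R was also lost under all 4 scalings (−1.10 to −0.33, adjusted p = 0.12 to 0.65) and without watered R replicate 3, droughted R replicate 1 or droughted R replicate 3 (−0.76, −1.21 and −0.91, adjusted p = 0.15, 0.066 and 0.12).

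Ta.16016.1.S1_at in S lost its call with hybridization control scaling (1.21, adjusted p = 0.11) and without any 1 of 6 arrays, most of all watered S replicate 1 (0.69, adjusted p = 0.19). The others were watered R replicate 3, droughted R replicate 2 and the 3 droughted S arrays, with changes of 1.02 to 1.30 (adjusted p = 0.0505 to 0.11). A variance fit without a trend ended this call and those of Ta.3784.1.S1_x_at and TaAffx.80290.1.S1_x_at in R (adjusted p = 0.08, 0.063 and 0.081), and array weights ended the latter pair (adjusted p = 0.074 and 0.051). TaAffx.38601.1.A1_at in R lost it with median scaling (−0.77, adjusted p = 0.082), hybridization control scaling (−0.34, adjusted p = 0.66) and scaling to the poly-A controls (−1.14, adjusted p = 0.067). Ta.10914.1.S1_at and TaAffx.52899.1.S1_at in S lost theirs with hybridization control scaling (−1.03 and −1.26, adjusted p = 0.15 and 0.082) and when scaled to the poly-A controls (−0.70 and −0.92, adjusted p = 0.34 and 0.18). That of Ta.10914.1.S1_at was also lost without watered S replicate 2 (−0.74, adjusted p = 0.095) or droughted S replicate 3 (−1.02, adjusted p = 0.06). Ta.9452.1.A1_at in R lost its call when scaled to the poly-A controls (0.84, adjusted p = 0.19) and without droughted R replicate 1 (0.64, adjusted p = 0.067). For TaAffx.55680.1.S1_at in S this happened with hybridization control scaling (1.14, adjusted p = 0.086).

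**Figure D3:**
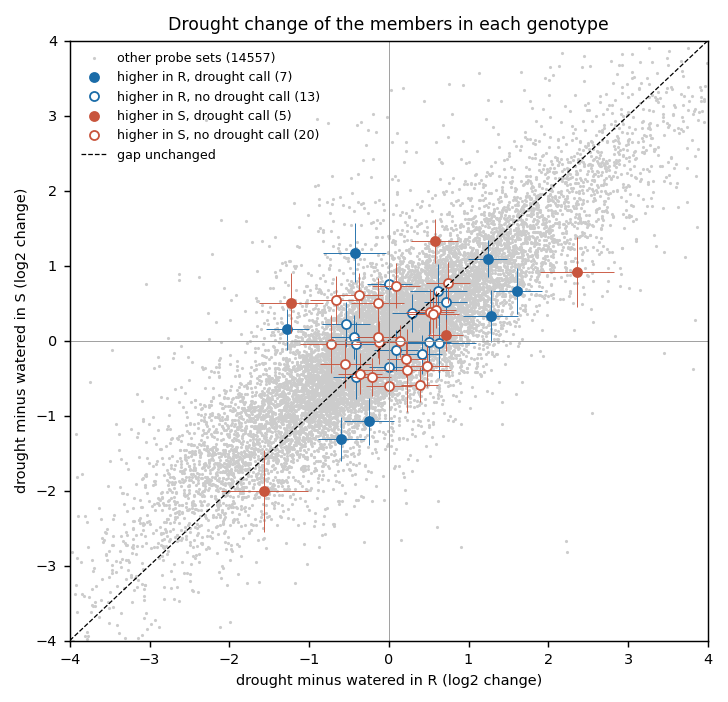
Log2 change from watered to droughted plants in R (x axis) and in S (y axis); filled points are the 12 members with a drought call in either genotype, open points the 33 with none, bars are SE, grey points the other probe sets measured on all arrays, of which 178 lie beyond the axes, and the dashed line is an equal change in both genotypes. Points below the line have a larger R minus S difference under drought, and most members lie near the centre.

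The members came from 42 transcript clusters, groups of probe sets whose names share a prefix and number because they were designed on related sequences. In 16 clusters the member was the only probe set of the array. The others held 48 further probe sets that are no members, 29 of them above the control level on all 12 arrays, and these read related sequence with other probes. They are described without a test, because probe sets of a cluster can share probes and can read the same transcript. Of the 28 in clusters whose members all point one way, 14 had the members' sign in both regimes, 7 the opposite sign in both and 7 a sign that differed between regimes. The arrays of the genotypes lay apart in 7 of the 28, each time in the members' direction. Among the 14602 probe sets, R lay above S in this way in 1.49% and S above R in 1.94%. Of the 7, Ta.22391.1.S1_at and Ta.3784.1.S1_a_at are on a member's own sequence, so nothing is read from this count. Over the 28, the median difference in the members' direction was 0.135 when watered and 0.14 under drought on the log2 scale. The rule picked the members for their gap and left these probe sets out, so nothing is read from their smaller median.

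Some clusters shared their gap. Ta.6835.1.S1_at ran from 18950 to 38170 in S and up to 9696 in R, with an R minus S difference of −2.79 and −2.33 in the 2 regimes, beside −2.38 and −3.14 for the member Ta.6835.3.S1_x_at. Ta.22391.1.S1_at differed by −1.35 and −1.23, beside −1.54 and −1.38 for its member on the same sequence. Ta.7416.1.A1_at differed by 1.54 and 1.26, beside 1.60 and 1.23 for Ta.7416.2.S1_a_at. In the last 2 clusters both probe sets gave nearly the same size of difference.

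In other clusters another probe set showed little of it, or a difference of the opposite sign. Ta.30561.1.A1_s_at differed by −0.05 and −0.58, with medians of 6020 in R and 7097 in S, beside −2.53 and −2.76 for Ta.30561.1.A1_at. For Ta.9729, the probe set Ta.9729.2.A1_a_at differed by 0.12 and −0.01, beside 2.20 and 3.15 for the member. The sign was opposite in both regimes for Ta.12530.1.S1_at, at 1.89 and 1.235, beside −1.96 and −2.61 for the member Ta.12530.3.S1_x_at. Likewise Ta.5969.1.A1_at differed by 0.99 and 0.63, beside −2.32 and −2.35 for Ta.5969.3.S1_x_at. In both of these other probe sets the arrays of the genotypes overlapped. Cluster TaAffx.80290 was mixed, since TaAffx.80290.2.S1_at differed by −0.11 and −0.80 and TaAffx.80290.1.S1_at, on the member's own sequence, by −2.59 and −3.26 with overlapping arrays, beside −6.27 and −5.82 for the member.

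Cluster Ta.22966 held members in both directions. Ta.22966.2.S1_at was higher in R, with 2840.4, 2339 and 2429 in watered R, 2480, 2625 and 2523 in droughted R, 225, 473 and 351 in watered S and 561, 427 and 791 in droughted S. Ta.22966.3.S1_x_at was higher in S, with 139, 297 and 372 in watered R, 158, 146 and 154 in droughted R, 1190.3, 1197 and 1878 in watered S and 1812, 2157 and 2139.8 in droughted S. Another probe set, Ta.22966.1.S1_x_at, differed little, by 0.55 and 0.06, at medians of 4795 in R and 4062 in S. The fourth, Ta.22966.3.S1_at, was below the control level on all 6 R arrays and ran from 1257 to 4615 in S. The 4 probe sets of this cluster thus ranged from higher in R to above the control level in S alone.

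A further 19 probe sets of these clusters were below the control level on at least 1 array, and 13 of them were above it on all 6 arrays of 1 genotype. Probe sets picked in this way have to be lower in the other genotype on some array, so nothing is read from how many differ. A few are given as examples chosen after their values were seen. TaAffx.131567.1.S1_at had a median of 11720 in R and was above the control level on 1 of 6 S arrays, with a highest S signal of 134. Its cluster's member TaAffx.131567.2.S1_x_at has S signals of 371 to 1743. Ta.3550.2.S1_a_at lay above the control level on all 6 R arrays and on none of S, where its highest signal was 17.2. Ta.19222.1.S1_at ran from 2920 to 4640 in S and was above the control level on 3 of 6 R arrays. Its 6 R arrays ran from 92.5 to 195, on either side of the control level. Against the direction of its cluster's member, Ta.28377.1.S1_at had an R minus S difference of −2.565 and −1.27, with overlapping arrays. The member Ta.28377.2.S1_s_at differed by 2.85 and 2.92.

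**Figure D4:**
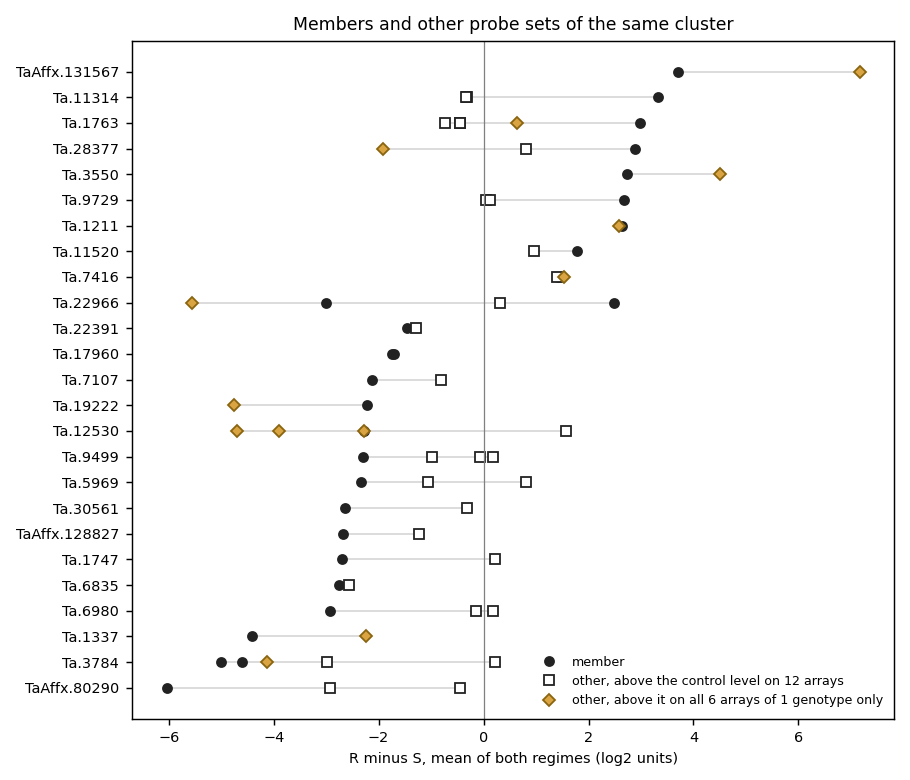
R minus S difference, mean of both regimes in log2 units, for the 25 clusters that hold a member and another measured probe set (70 probe sets); black circles are members, open squares other probe sets above the control level on all 12 arrays, and diamonds those above it on all 6 arrays of 1 genotype only. Squares and diamonds were drawn by different conditions on their level, so their distances from 0 are not compared; several squares lie near 0, and cluster Ta.22966 has members on both sides.

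The names of the members also carry a feature the rule did not use. Probe sets ending in _x_at made up 18 of the 45 members (40.0%), 14 of 25 higher in S (56.0%) and 4 of 20 higher in R (20.0%), against 17.9% of the 14602 probe sets measured on all arrays. Endings in _at made up 53.3% of members and 59.5% of that background, and those in _a_at 2.22% and 14.5%. The names starting with TaAffx accounted for 8 members (17.8%) against 23.0%. These shares are given without a test, and 2 pairs of members, of Ta.3784 and Ta.17960, are an _at and an _x_at probe set on 1 sequence.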

How the data were processed

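The authors deposited 1 signal intensity per probe set and array on a linear scale, made with MAS5 from biotin-labelled total RNA, per the submitters' processing notes and the labels' protocols. The version of MAS5 is not given in the sources used here. Groups and replicate numbers came from the sample titles, because the last line of the longer description repeats 1 group for all samples. The 111 AFFX and 64 RPTR control probe sets were left out. The control level of 129 is the 95th percentile of 276 signals of 23 tag and TrpnX probe sets.

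The 45 members and all lists and settings were chosen with earlier results of these data known. Means of the 4 groups were fitted with limma 3.58.1 in R 4.3.3 (lmFit, eBayes with a trend) on log2(signal + 16), over 38398 probe sets that exceeded the median of the array in 3 or more of the 12, with no further scaling, and p-values were adjusted by Benjamini-Hochberg over all of them. All 45 members were tested. The number of arrays limits the precision. The fit was tested on simulated data. Alternatives were other pseudocounts, scalings, filters and variance settings, array weights, the replicate number as a block and each array left out in turn. Members named were those with a gene, the 8 of widest separation in each direction, the 3 nearest the limit of the rule on either side, the 3 brightest in each direction and those called for drought in both genotypes. All others were picked after their values were seen. Figures were drawn with matplotlib 3.10.9.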

Additional observations from a re-analysis of the deposited data

Results flagged for a closer look

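Ta.19222.1.S1_x_at, higher in S, was the only member whose arrays moved apart in opposite directions under drought, higher in R and lower in S. Its signals were 346, 358 and 287 in watered R, 441.3, 481 and 389 in droughted R, 2489, 2488 and 1849 in watered S and 1487, 1725 and 1302 in droughted S. The drought change in R minus that in S was 0.97 ± 0.33 on the log2 scale, and its test did not pass the threshold (limma adjusted p = 0.23). Neither change was called by itself, at 0.39 in R and −0.59 in S (adjusted p = 0.22 and 0.075). The other probe set on the same sequence, Ta.19222.1.S1_at, had an R minus S difference of −4.71 when watered and −4.80 under drought.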

How the results depend on the processing

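The 45 members fell to 24 when scaled to the poly-A controls, 17 with hybridization control scaling, 17 at a margin of 3 times and 21 at 2 times the control level. They rose to 65 with the control level halved, 30 higher in R and 35 higher in S, and to 106 at a margin of 1.5 times. With 1 array left out, which can only add members, they numbered 45 to 71. Members called for drought in R numbered 8 as deposited, 17 with median or hybridization control scaling and 4 when scaled to the poly-A controls, where 33.4%, 31.8%, 27.8% and 22.2% of all tested probe sets were called. In S they numbered 6, 2 with hybridization control scaling and 10 with array weights, where 27.2%, 17.1% and 33.8% were called. The interaction gave 0 members under all 23 alternatives, where 0.0443% to 0.445% of all tested probe sets were called. The median change of the gap for members higher in R was 0.17, and 0.62, 1.06 and −0.091 with median, hybridization control and poly-A control scaling. For members higher in S it was −0.13, and −0.56, −0.37, −0.99 and 0.14 with median scaling, quantile normalization, hybridization control and poly-A control scaling. The cause was not tested. With the replicate number as a block, 9 members were called in R, 6 in S and 0 for the interaction. Of all tested probe sets 32.3%, 26.3% and 0.12% were called. The calls of Ta.16016.1.S1_at in S and TaAffx.80290.1.S1_x_at in R were lost with the block (limma adjusted p = 0.058 and 0.0503). Deviations of arrays with the same number correlated with r of −0.13 to 0.18, over 0.1 in 1 of 18 pairs. Of the 12 arrays, 3 correlated best with one of their own number. No pairing by number was seen, which does not exclude one, since each group has few arrays. Signals near the control level limit the size of a gap. In 2 members the lower genotype stayed under 2 times that level.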
